A study of Rattus norvegicus with 10 samples.

Results

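The mitochondrial carriers of the SLC25 family were taken as every gene in the expected count table whose symbol is Slc25a followed by a number. This rule found 39 of the 17168 gene symbols. The aspartate and glutamate carriers Slc25a12 and Slc25a13 had no such symbol in the table, so the 39 are not the whole family. Of these 39, 34 passed the filter on low counts and could be tested, and 5 did not. RNA was sequenced from left hippocampi of female TgF344-AD rats. In these rats the mouse prion promoter drives mutant human amyloid precursor protein and presenilin, which models Alzheimer's disease. All 10 animals carried these transgenes, and the comparison held no non-transgenic group. The untreated group was 5 transgenic rats on rodent chow. The RG2833 group was 5 transgenic rats that began chow with RG2833, an inhibitor of histone deacetylases, at 5 months of age. Its chow held 750 mg of the drug per kg and was given for 6 months. Both groups were killed at 11 months, and a blue food dye told the 2 chows apart.

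SLC25 proteins sit mostly in the inner mitochondrial membrane and exchange small molecules between the cytosol and the matrix. Each carrier is built from repeats of paired transmembrane helices and alternates between an opening to either side of the membrane. Through them ADP enters and ATP leaves, phosphate and glutamate are brought in, and carnitine esters, nucleotides, cofactors and iron reach the matrix. In the brain the family is known for feeding oxidative metabolism at synapses and for glutamate handling in neurons and astrocytes.

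Transcript levels of the family differed little between the groups. Of the 34 tested carriers, 1 rose and 1 fell in RG2833 animals in edgeR's quasi-likelihood test, with p-values adjusted by Benjamini and Hochberg's method over all tested genes and a threshold of 0.05. The 2 called carriers were 5.88% of those tested, near the background of 5.08% called among all 11791 tested genes, of which 2.41% were called higher and 2.67% lower. Slc25a25, a calcium-regulated carrier that exchanges ATP-Mg for phosphate, rose by 0.29 ± 0.07 (log2, SE). Slc25a18, a glutamate carrier known from astrocytes, changed by -0.79 ± 0.21 (log2, SE). At an unadjusted p under 0.05, 5 carriers passed (14.7%), against 24.5% of all tested genes. DESeq2's Wald test called 4 carriers and 10.6% of all tested genes.

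The size of the differences was small across the family. The median log2 fold change was -0.05 over the 34 carriers and 0.00 over all tested genes. In absolute terms the medians were 0.11 and 0.16. For 32 of the 34 carriers (94.1%) the absolute log2 fold change was under 0.3, against 76.7% of all tested genes. The median standard error was 0.10 for the carriers and 0.12 for all tested genes. Of the carriers, 10 had a positive and 24 a negative fold change, against 5828 and 5963 of all tested genes. In 1 carrier (2.94%) the 5 RG2833 values lay entirely outside the 5 untreated values, against 7.27% of all tested genes.

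**Figure D1:**
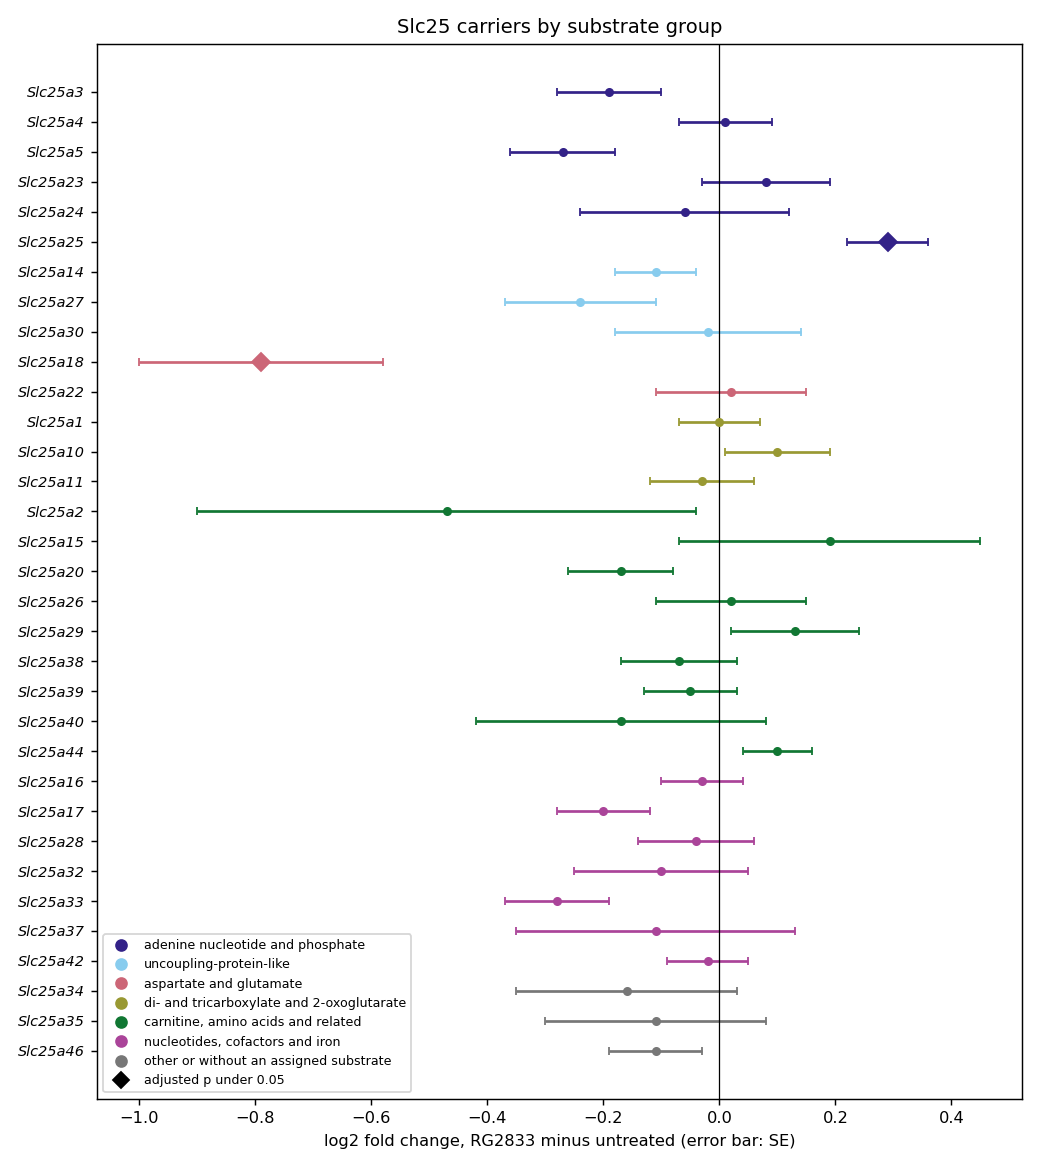
Log2 fold change (RG2833 minus untreated, horizontal axis) with its standard error for 33 of the 34 tested carriers, coloured by substrate group. Slc25a25 at 0.29 and Slc25a18 at -0.79 are drawn as diamonds, the 2 carriers past an adjusted p under 0.05, and most of the other points lie within 0.3 of zero.

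The start-site windows of 3 carriers are shown here, those of both called genes and that of Slc25a33, which shares a motif with Slc25a25. Of the 39 carriers, 33 had an entry in the RefSeq promoter table (GRCr8), which gives 250 bases before and 50 bases after 1 start site per entry. The counts were made on rn6, so these windows were used as sequences only. Which start site was used in these animals was not measured. Windows are written 5′ to 3′ on the strand of the gene. Capitals mark every match, on either strand, to the motifs searched. The cAMP response element was searched as TGACGTCA and its shorter form, which the full element contains, as TGACG. The GC box was searched as GGGCGG and the ETS motif as CCGGAAG. The core motif for NRF1 was GCGCATGCG, the motif for YY1 was AAGATGGC and the TATA box was TATAAA.

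The window of Slc25a25 is GRCr8 chr3:36116532-36116831 on the minus strand, that of Slc25a18 is chr4:155672919-155673218 on the plus strand, and that of Slc25a33 is chr5:165502924-165503223 on the minus strand.
Slc25a25: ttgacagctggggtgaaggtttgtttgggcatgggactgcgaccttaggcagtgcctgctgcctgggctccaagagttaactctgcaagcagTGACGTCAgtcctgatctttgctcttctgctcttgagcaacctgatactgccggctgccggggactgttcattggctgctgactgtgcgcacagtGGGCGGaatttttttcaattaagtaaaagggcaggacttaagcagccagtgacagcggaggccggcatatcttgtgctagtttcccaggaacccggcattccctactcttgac
Slc25a18: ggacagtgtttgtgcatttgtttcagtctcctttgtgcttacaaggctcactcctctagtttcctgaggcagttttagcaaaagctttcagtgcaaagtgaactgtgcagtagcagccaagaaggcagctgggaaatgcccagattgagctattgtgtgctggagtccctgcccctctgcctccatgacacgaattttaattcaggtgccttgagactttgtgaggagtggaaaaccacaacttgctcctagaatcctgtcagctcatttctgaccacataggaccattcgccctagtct
Slc25a33: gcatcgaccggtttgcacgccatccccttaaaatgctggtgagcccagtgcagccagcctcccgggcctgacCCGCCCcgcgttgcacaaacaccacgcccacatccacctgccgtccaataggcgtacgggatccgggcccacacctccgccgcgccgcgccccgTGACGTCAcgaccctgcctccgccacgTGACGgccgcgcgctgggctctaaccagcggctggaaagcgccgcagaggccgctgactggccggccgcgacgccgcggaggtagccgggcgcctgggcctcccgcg

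The cAMP response element was present in the windows of Slc25a25 and Slc25a33, which were 2 of the 33 carrier windows (6.06%), against 1.83% of all 33469 windows of the same length. The Slc25a18 window held none of the motifs searched, and its 2 CpG dinucleotides were 0.12 of the number its base composition predicts. In the Slc25a25 window this ratio was 0.41, and the Slc25a33 window, with 40 CpG dinucleotides, was above 0.6. A ratio of at least 0.6 was found in 19 carrier windows (57.6%) and in 34.4% of all windows. The GC box occurred in 23 carrier windows (69.7%), against 33.1% of all, and the ETS motif in 7 (21.2%), against 8.75%. The TATA box was found in 1 (3.03%), against 14.2%. The short form of the cAMP response element occurred in 9 (27.3%), against 21.2%, the YY1 motif in 1 (3.03%), against 3.17%, and the NRF1 core in 0, against 1.52%. The set of all windows includes genes that are not expressed in the hippocampus. These matches are a description of sequence and were not tested for binding.

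The libraries held between 8764266 and 11311673 estimated counts, and the carriers together took between 0.289% and 0.337% of them in untreated animals and between 0.288% and 0.31% in RG2833 animals. Ribosomal RNA loci took a share of the counts that ran from 2.7% to 5.36% in untreated and from 1.13% to 1.96% in RG2833 animals, without overlap, so treatment and this share cannot be told apart. Untreated replicate 1 held far more choroid plexus marker RNA than the other untreated animals (2451 CPM against 6.76 to 24.5 CPM summed over 6 genes). The sums with RG2833 were 6.49 to 47.5 CPM. Of the 6 genes 3 were tested, with log2 fold changes from -5.10 to -1.38. Of these edgeR called 0, 2 passed at an unadjusted p under 0.05 and DESeq2 called 1. Kcne2 was 2.22 to 9.15 CPM in untreated and 1.03 to 1.99 CPM in RG2833 animals. The 4 hippocampal markers Prox1, Zbtb20, Fibcd1 and C1ql2 were detected in every animal, with sums of 151 to 445 CPM in the untreated group and 344 to 485 CPM with RG2833. Single markers differed more than these sums. In untreated replicates 1 and 3, Prox1 was 12.4 and 11.2 CPM and C1ql2 36.5 and 49.9 CPM. No further animal, treated or not, was below 28.8 CPM for Prox1 or 84 CPM for C1ql2. Fibcd1 was 88.3 CPM in untreated replicate 1, the lowest of all animals, and 365 CPM in untreated replicate 3, the highest. The part of hippocampal subfields in the carrier values was not tested. CPM are counts scaled to a common library size with TMM factors, per 1000000 counts. Nothing in the labels says whether the animals came from separate litters or cages, so p-values describe the spread between these animals.

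The carriers of adenine nucleotides and phosphate held 1 called gene among 6 tested, against 5.08% called among all tested genes. At an unadjusted p under 0.05, 2 of the 6 passed, against 24.5%, and DESeq2 called 2, against 10.6%. Slc25a25 was 49.6, 49.6, 52.5, 59.4 and 57.4 CPM in untreated replicates 1 to 5 and 68.7, 65.8, 64, 61.1 and 69.9 CPM in RG2833 replicates 1 to 5. Every RG2833 animal was above every untreated animal, with untreated replicate 4 and RG2833 replicate 4 the closest. The mean rose from 53.7 ± 4.49 to 65.9 ± 3.54 CPM (SD, n = 5 each), a fold of 1.23 (edgeR adjusted p = 0.0408). Of the excitatory neuron markers Slc17a7, Neurod2 and Neurod6, only Slc17a7 separated the groups (1266 to 1801 CPM untreated, 1906 to 2344 CPM with RG2833). Neurod2 and Neurod6 overlapped through untreated replicate 4, at 189 and 335 CPM. The 3 markers summed to 1434 to 2325 CPM in the untreated group and 2442 to 2876 CPM with RG2833, mostly from Slc17a7. Their log2 fold changes lay between 0.36 and 0.83, and edgeR called 0 of the 3. At an unadjusted p under 0.05, 2 passed, against 24.5% of all tested genes, and DESeq2 called 2, against 10.6%. Of the 4 general neuron markers 1 was called higher, Rbfox3, from 98.4 ± 25.2 to 147 ± 10.6 CPM (SD, n = 5; edgeR adjusted p = 0.04). Leaving out any animal other than untreated replicate 4 or 5 ended the Rbfox3 call (edgeR adjusted p = 0.0667 to 0.11), and with the ribosomal RNA share in the model its log2 fold change was 0.17. The 4 general markers had log2 fold changes from -0.02 (Tubb3) to 0.57, and their sums overlapped, with 3573 to 5693 CPM without and 5358 to 6528 CPM with RG2833. The 5 inhibitory neuron markers summed to 401 to 745 CPM and 419 to 565 CPM, with a median log2 fold change of -0.13, and of these edgeR called 0, 0 passed at an unadjusted p under 0.05 and DESeq2 called 0. No neuron marker was at 0 in any animal. The part of neuron content in the Slc25a25 difference was not tested, and in bulk tissue fewer cells of a type and less RNA per cell cannot be told apart.

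The Slc25a25 call was lost when any of 8 animals was left out (untreated replicates 1, 2 or 3, or any RG2833 replicate), with log2 fold changes of 0.27 to 0.31 and edgeR adjusted p-values of 0.062 to 0.11, and was kept without untreated replicate 4 (edgeR adjusted p = 0.0137) or 5 (edgeR adjusted p = 0.0304). With that ribosomal RNA share added to the model, the log2 fold change was 0.21 ± 0.15 (SE; edgeR adjusted p = 1), and with the replicate block it was 0.30 ± 0.08 (edgeR adjusted p = 0.0941).

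Slc25a5 and Slc25a4 encode ADP/ATP translocases, which swap matrix ATP for cytosolic ADP. Slc25a5 was 322, 242, 319, 262 and 271 CPM in untreated and 243, 235, 225, 253 and 219 CPM in RG2833 replicates 1 to 5. The groups overlapped, because untreated replicate 2 lay among the RG2833 animals. The log2 fold change was -0.27 ± 0.09 (SE) and did not pass (edgeR adjusted p = 0.0929), whereas DESeq2 called it (DESeq2 adjusted p = 0.0495). For Slc25a4 the untreated mean was 857 ± 88.8 CPM and the RG2833 mean 862 ± 42 CPM (SD, n = 5 each), a difference far inside the spread. As a share of the summed CPM of the pair, Slc25a5 was 23.2% to 25.9% in untreated animals and 20.9% to 22.2% in RG2833 animals, so the shares did not overlap although edgeR called neither gene. This share was computed after the values of both genes had been seen, and it was given no test. The 2 genes are closely similar in sequence, so the estimated counts are uncertain where reads could be split between them or their pseudogenes.

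Slc25a3, the phosphate carrier that supplies ATP synthase, was 446, 343, 448, 358 and 415 CPM in untreated and 367, 360, 339, 376 and 316 CPM in RG2833 replicates 1 to 5. Its log2 fold change of -0.19 ± 0.09 (SE) did not pass (edgeR adjusted p = 0.216). As for Slc25a5, untreated replicates 1 and 3 were the highest of all animals. The relatives of Slc25a25 in ATP-Mg exchange did not pass either. Slc25a23 was 245 ± 41.9 and 259 ± 21.3 CPM and Slc25a24 was 5.88 ± 0.983 and 5.63 ± 1.34 CPM without and with RG2833 (SD, n = 5).

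**Figure D2:**
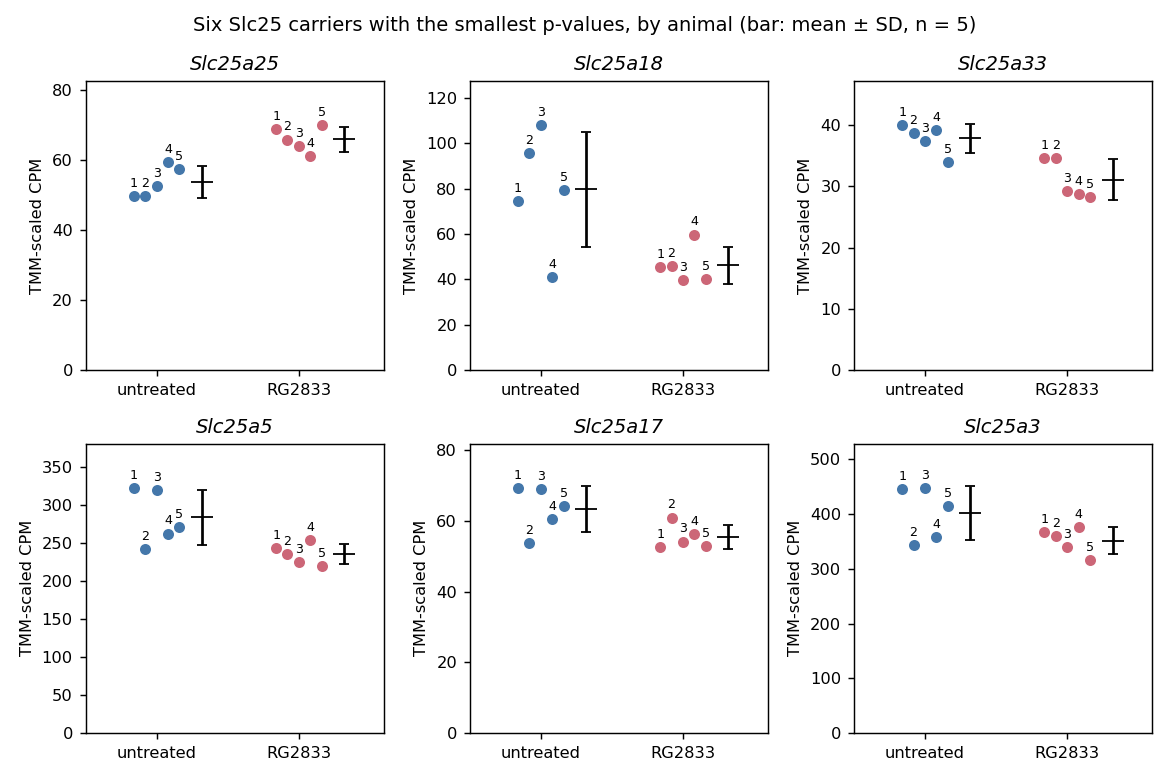
TMM-scaled CPM (vertical axis) in each animal, numbered by replicate, for the 6 carriers with the smallest p-values, with the mean and SD of each group of 5. Slc25a25 separates the groups completely, whereas untreated replicate 4 sits at 41.2 CPM of Slc25a18, within the RG2833 values of 39.6 to 59.8.

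Among the glutamate carriers, which bring glutamate into the matrix, 1 of 2 tested was called, against 5.08% of all tested genes. With 2 genes this share says little about the group. The aspartate and glutamate carriers Slc25a12 and Slc25a13 were not in the table under these symbols. Slc25a18 was 74.6, 95.8, 108, 41.2 and 79.5 CPM in untreated replicates 1 to 5, the widest spread among the 12 carriers with the smallest p-values (SD of 0.53 in log2 CPM, against a median of 0.18 over the tested carriers). In RG2833 replicates 1 to 5 it was 45.3, 45.9, 39.6, 59.8 and 40.4 CPM. Untreated replicates 1, 2, 3 and 5 were above every RG2833 animal, and untreated replicate 4 was below all but 2 of them. The mean fell from 79.8 ± 25.2 to 46.2 ± 8.11 CPM (SD, n = 5 each), a fold of 0.58 (edgeR adjusted p = 0.0495). Slc25a22, the other tested glutamate carrier, was 402, 288, 457, 293 and 394 CPM in untreated and 432, 345, 328, 369 and 378 CPM in RG2833 replicates 1 to 5. Its means of 367 ± 73.7 and 370 ± 39.6 CPM (SD, n = 5) differed by less than either SD. The share of Slc25a18 in the summed CPM of both was 12.4% to 25% without RG2833 and 9.5% to 13.9% with it, and the groups overlapped.

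The 6 astrocyte markers (Aqp4, Gfap, Aldh1l1, Slc1a3, Slc1a2 and Gja1) summed to 3232 to 5046 CPM in the untreated group and 3579 to 4875 CPM with RG2833, and none was at 0 in any animal. Their log2 fold changes lay between -0.16 and 0.25. By edgeR 0 were called and 0 passed at an unadjusted p under 0.05, and DESeq2 called 0. Of 5 microglial markers 1 was called lower, Aif1, by -0.74 ± 0.20 (log2, SE; edgeR adjusted p = 0.0496). Leaving out any animal other than untreated replicate 4 or 5 ended that call (edgeR adjusted p = 0.0862 to 0.11). The other 4 microglial markers had log2 fold changes from -0.29 (P2ry12) to 0.20 (Cx3cr1), and the list's median was -0.11. The list summed to 226 to 326 CPM without and 206 to 272 CPM with RG2833. The 2 oligodendrocyte precursor markers summed to 93 to 130 CPM and 78.7 to 105 CPM, with log2 fold changes of -0.35 and -0.26. The 5 endothelial and pericyte markers summed to 204 to 293 CPM and 188 to 209 CPM, with log2 fold changes from -0.44 to -0.05. In these last lists edgeR called 0, while 1 precursor and 2 vessel markers passed at an unadjusted p under 0.05 and DESeq2 called 1 of each. None of these markers was at 0 in any animal, and their part in the Slc25a18 difference was not tested. Untreated replicate 4, which had the low Slc25a18 value, had an astrocyte marker sum of 4646 CPM, the second highest of its group. Gfap gave 2586 CPM of that sum. In the same animal Aqp4 was the second highest of its group (654 CPM), and Aldh1l1 and Gja1 were in the middle. Slc1a3 was the second lowest (656 CPM) and Slc1a2 the lowest (117 CPM), so the markers did not move together. Without that animal the Slc25a18 log2 fold change was -0.95 ± 0.14 (SE; edgeR adjusted p = 0.00173). Leaving out any of the other 9 animals ended the call, with log2 fold changes of -0.90 to -0.66 and edgeR adjusted p-values of 0.0562 to 0.126. With that ribosomal RNA share added to the model, the log2 fold change was 0.03 ± 0.35 (SE; edgeR adjusted p = 1), and with the replicate block it was -0.75 ± 0.24 (SE; edgeR adjusted p = 0.125).

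**Figure D3:**
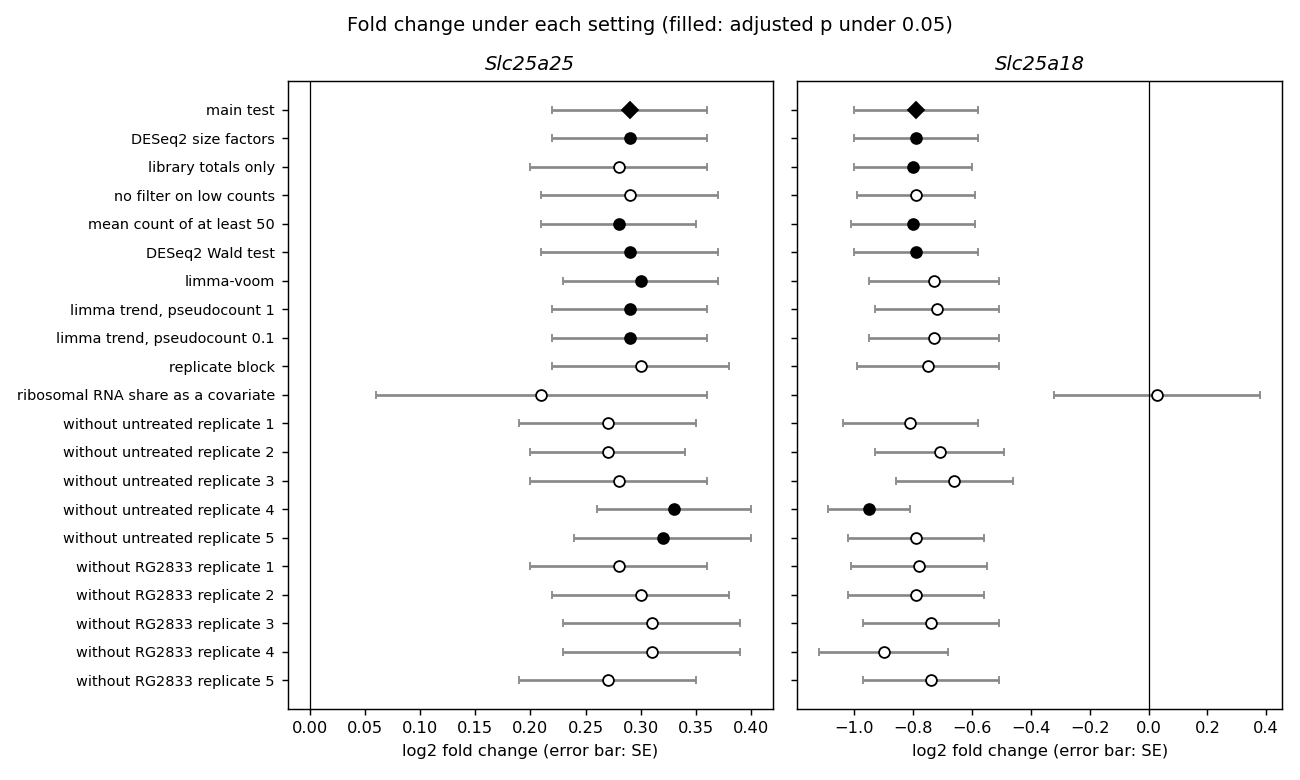
Log2 fold change with its standard error (horizontal axis) of Slc25a25 and Slc25a18 under the main test and 20 alternatives (vertical axis), filled where the adjusted p was under 0.05. Slc25a25 was past the threshold in 8 and Slc25a18 in 5 of the 20, and the ribosomal RNA covariate moved Slc25a18 to 0.03.

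The uncoupling-protein-like carriers Slc25a14, Slc25a27 and Slc25a30, of which the first and second are known from the brain, had log2 fold changes between -0.24 and -0.02. By edgeR 0 of the 3 were called, 0 passed at an unadjusted p under 0.05 and DESeq2 called 0. Slc25a27 (UCP4) was 43, 34.5, 40.4, 27.1 and 42 CPM in untreated and 37.3, 31.5, 30.5, 26.6 and 31.9 CPM in RG2833 replicates 1 to 5. The groups overlapped through untreated replicates 2 and 4 (log2 fold change -0.24 ± 0.13, SE; edgeR adjusted p = 0.265). Slc25a14 (UCP5) was 46.1, 43.8, 46.1, 42.8 and 48.4 CPM in untreated and 45.9, 42, 43.8, 41.3 and 36.7 CPM in RG2833 replicates 1 to 5. Its lowest value was that of RG2833 replicate 5 (log2 fold change -0.11 ± 0.07, SE; edgeR adjusted p = 0.36).

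Carriers that link the citric acid cycle to the cytosol did not pass the test. The citrate carrier Slc25a1 was 47.2 ± 4.16 and 47 ± 2.07 CPM, the dicarboxylate carrier Slc25a10 36.8 ± 4.86 and 39.4 ± 2.35 CPM, and the oxoglutarate and malate carrier Slc25a11 96.2 ± 12.1 and 93.9 ± 7.13 CPM without and with RG2833 (SD, n = 5). Log2 fold changes lay between -0.03 and 0.10, with standard errors of at most 0.09. By edgeR 0 of these 3 were called, 0 passed at an unadjusted p under 0.05 and DESeq2 called 0. The oxoadipate carrier Slc25a21 was below the filter.

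Of the carriers for carnitine esters, amino acids and related substrates, 9 were tested and edgeR called 0, with 0 at an unadjusted p under 0.05 and 0 by DESeq2. Slc25a20 imports acylcarnitines for fatty acid oxidation. It was 38.6, 37.9, 39, 30.3 and 32.9 CPM in untreated and 30.6, 33.5, 30.3, 30.7 and 33.1 CPM in RG2833 replicates 1 to 5. Untreated replicates 1, 2 and 3 were above all others, and untreated replicates 4 and 5 lay within the RG2833 range (log2 fold change -0.17 ± 0.09, SE; edgeR adjusted p = 0.233). With the ribosomal RNA share in the model its log2 fold change was 0.04. Slc25a44, the carrier of branched-chain amino acids, was 72.8, 78.2, 84.9, 74.4 and 78.4 CPM in untreated and 80.1, 83.8, 80.9, 86.6 and 86.2 CPM in RG2833 replicates 1 to 5. Untreated replicate 3 was the reason for the overlap (log2 fold change 0.10 ± 0.06, SE; edgeR adjusted p = 0.324). The glutathione carrier Slc25a39 was 64.7 ± 6.98 and 62.7 ± 4.35 CPM, the glycine carrier Slc25a38 25.6 ± 2.54 and 24.3 ± 2.47 CPM, the S-adenosylmethionine carrier Slc25a26 9.69 ± 1.31 and 9.81 ± 1.31 CPM, and the basic amino acid carrier Slc25a29 20.6 ± 2.94 and 22.5 ± 1.81 CPM (SD, n = 5). The ornithine carriers Slc25a15 and Slc25a2 had means of 2.7 and 3.08 CPM and of 1.32 and 0.958 CPM. For Slc25a2 the standard error of the log2 fold change was 0.43, the largest in the family, so a difference of the size of the Slc25a25 call was not detectable there.

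Among 8 tested carriers of nucleotides, cofactors and iron, edgeR called 0, against 5.08% of all tested genes. At an unadjusted p under 0.05, 2 passed, against 24.5% of all tested genes, and DESeq2 called 1, against 10.6%. Slc25a33, which imports pyrimidine nucleotides, was 40, 38.7, 37.4, 39.2 and 34 CPM in untreated and 34.7, 34.7, 29.2, 28.8 and 28.2 CPM in RG2833 replicates 1 to 5. Only untreated replicate 5 reached into the RG2833 range (log2 fold change -0.28 ± 0.09, SE; edgeR adjusted p = 0.0762). It was the gene that DESeq2 called (DESeq2 adjusted p = 0.0466), and edgeR called it without untreated replicate 5 (-0.32 on the log2 scale, edgeR adjusted p = 0.0473). Leaving out any of the other 9 animals gave edgeR adjusted p-values of 0.0813 to 0.177, and with the ribosomal RNA share in the model the log2 fold change was -0.12 ± 0.16 (SE). Its direction, in a change that edgeR did not call, was opposite to that of Slc25a25, the other carrier whose start-site window held the cAMP response element. Use of that element in these animals was not tested.

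Slc25a17, the carrier of coenzyme A and related cofactors in peroxisomes rather than mitochondria, was 69.4, 53.8, 69.2, 60.6 and 64.3 CPM in untreated and 52.7, 61, 54.2, 56.3 and 52.8 CPM in RG2833 replicates 1 to 5. Untreated replicates 2 and 4 lay within the RG2833 range, and the log2 fold change of -0.20 ± 0.08 (SE) missed the threshold (edgeR adjusted p = 0.163). The mitoferrins, which import iron, were 46.2 ± 5.96 and 45 ± 3.36 CPM for Slc25a28 and 2.11 ± 0.359 and 1.95 ± 0.583 CPM for Slc25a37 in untreated and RG2833 animals (SD, n = 5). Slc25a37 is known from red cell precursors, and the 4 erythroid markers in the table summed to 4.76 to 26.5 CPM in the untreated group and 2.29 to 26.1 CPM with RG2833. The coenzyme A carrier Slc25a42 was 40.6 ± 3.45 and 40 ± 1.45 CPM, and the folate carrier Slc25a32 10.3 ± 1.13 and 9.6 ± 1.93 CPM. Slc25a16, a relative linked to coenzyme A, was 34.4 ± 2.18 and 33.6 ± 1.16 CPM.

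Slc25a46 differs from the rest in lying in the outer membrane, where it takes part in mitochondrial dynamics. It was 95.6, 75, 94.9, 92.1 and 100 CPM in untreated and 88, 88, 87.2, 84.7 and 76.1 CPM in RG2833 replicates 1 to 5. Untreated replicate 2 was the lowest of all 10 animals (log2 fold change -0.11 ± 0.08, SE; edgeR adjusted p = 0.429). Slc25a34 and Slc25a35, for which no substrate was assigned here, had means of 9.17 ± 1.67 and 3.55 ± 0.781 CPM in the untreated group and 8.22 ± 2.26 and 3.3 ± 0.528 CPM in the RG2833 group (SD, n = 5). For these 3 genes edgeR called 0, 0 passed at an unadjusted p under 0.05 and DESeq2 called 0. The 22 tested carriers outside the 12 with the smallest p-values had log2 fold changes between -0.47 and 0.19 and edgeR adjusted p-values of at least 0.499.

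The 5 carriers below the filter, Slc25a21, Slc25a41, Slc25a45, Slc25a47 and Slc25a54, had between 0 and 1.26 CPM, where 3 counts correspond to 0.268 to 0.343 CPM. Slc25a41 had no count in 7 of the 10 animals and Slc25a54 in 5. Slc25a45 was 1.26, 1.2, 1.02, 0.931 and 0.635 CPM in untreated and 0.477, 0.624, 0.517, 0.414 and 0.942 CPM in RG2833 replicates 1 to 5. These 5 were tested without the filter on low counts, where edgeR called 0 of the 39 carriers and 6 passed at an unadjusted p under 0.05, and by DESeq2, which called none of the 5.

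In some animals many carriers lay on the same side of the mean. Over the 34 carriers, the median deviation from the mean of the own group was -0.07 in untreated replicates 2 and 4 and 0.08 and 0.10 in untreated replicates 1 and 3 (log2 CPM), while over all tested genes these medians lay between 0.00 and 0.01. Untreated replicates 1 and 3 also held the least Prox1 and C1ql2 of all animals, and a link between these values was not tested. Untreated replicate 2 was the lowest untreated animal for 13 of the 34 carriers, and untreated replicate 3 the highest for 10. In the RG2833 group the medians ran from -0.04 to 0.05. The median SD of a carrier was 0.18 in untreated and 0.12 in RG2833 animals (log2 CPM), against 0.21 and 0.14 over all tested genes.

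**Figure D4:**
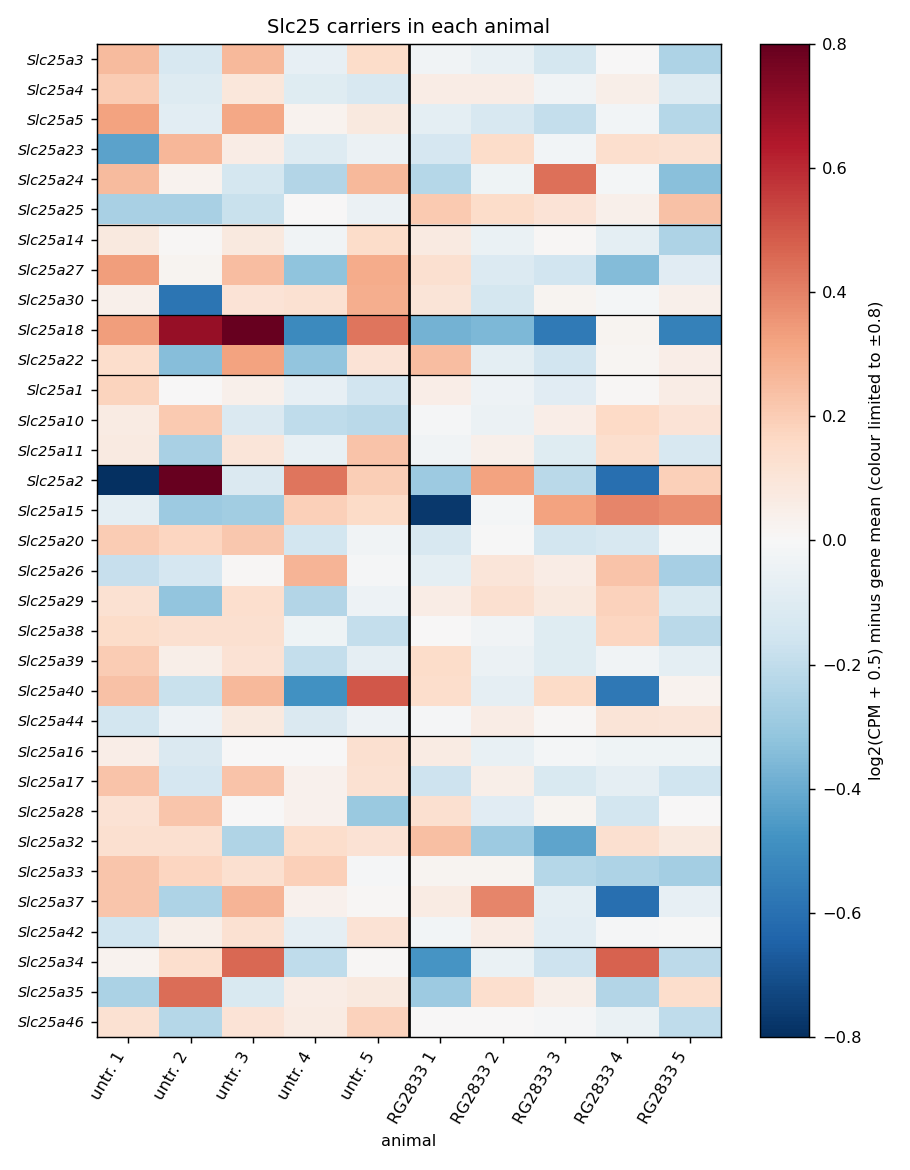
Colour gives log2(CPM + 0.5) minus the mean of the gene, limited to ±0.8, for 33 of the 34 tested carriers (rows, in substrate groups) in the 10 animals (columns). Slc25a18 is high in untreated replicates 1, 2, 3 and 5 and low in untreated replicate 4, and most rows show no block of colour that follows the treatment.

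Genes that work beside the carriers were read from lists chosen with earlier results of these data known. Of 6 family members under other names, Ucp2, Mtch1, Mtch2 and Mcart1 were tested, and Ucp1 and Ucp3 were below the filter on low counts. By edgeR 0 of the 4 tested were called and 1 passed at an unadjusted p under 0.05 (25%, against 24.5% of all tested genes). DESeq2 called 1 of the 4, where it called 10.6% of all tested genes. That gene was Ucp2, a proton and metabolite carrier, named after its values were seen. Ucp2 was 198, 92.8, 70.7, 173 and 89.1 CPM in untreated and 269, 220, 203, 188 and 237 CPM in RG2833 replicates 1 to 5, and only untreated replicate 1 reached into the RG2833 range. Its log2 fold change was 0.84 ± 0.25 (SE; edgeR adjusted p = 0.0696), and it was past the threshold without untreated replicate 1 (1.07) or 4 (0.99), by DESeq2 and by limma trend. Without untreated replicate 2, 3 or 5 it was 0.69 to 0.75, and with the ribosomal RNA share in the model 0.17 ± 0.42 (SE; edgeR adjusted p = 1).

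The machinery that imports carriers, which hands them through the outer membrane pore and small chaperones to the inner membrane, had 14 tested genes. Of these, 2 were called lower and 0 higher (14.3%, against 5.08% of all tested genes), with a median log2 fold change of -0.19. At an unadjusted p under 0.05, 6 were lower and 1 higher (50% in all, against 24.5% of all tested genes), and DESeq2 called 5, where it called 10.6% of all tested genes. Timm8b, a small chaperone between the membranes, was 150, 128, 135, 112 and 93 CPM in untreated and 86.5, 92.8, 77.1, 86.3 and 79.1 CPM in RG2833 replicates 1 to 5. Untreated replicate 5 and RG2833 replicate 2 nearly touched (log2 fold change -0.55 ± 0.11, SE; edgeR adjusted p = 0.0239). Tomm7, a small subunit of the outer membrane pore, was 94.6, 90.5, 83.5, 62.4 and 61.2 CPM in untreated and 58.8, 56.4, 55.8, 54.3 and 51.9 CPM in RG2833 replicates 1 to 5. Untreated replicates 4 and 5 were close to the RG2833 animals (log2 fold change -0.50 ± 0.12, SE; edgeR adjusted p = 0.0381). Of the 10 fits without 1 animal, 4 kept the call of Timm8b (those without untreated replicates 1, 2, 4 or 5) and 2 that of Tomm7 (without untreated replicates 4 or 5). Leaving out any other animal gave edgeR adjusted p-values of 0.0502 to 0.072 for Timm8b and 0.0691 to 0.105 for Tomm7. The number of import genes called by edgeR was 4 without untreated replicate 4 and 5 without untreated replicate 5, of which 1 was higher. It was 1 without untreated replicate 1 or 2 or RG2833 replicate 1, and 0 (5 to 7 at an unadjusted p under 0.05) without untreated replicate 3 or RG2833 replicate 2, 3, 4 or 5. With the ribosomal RNA covariate the log2 fold changes were -0.31 ± 0.22 and -0.19 ± 0.22 (SE), and neither was called.

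In the list of other mitochondrial transport and shuttle genes 1 of 22 was called (4.55%, against 5.08% of all tested genes). At an unadjusted p under 0.05, 6 passed, all lower (27.3%, against 24.5%). DESeq2 called 2 of the 22, where it called 10.6% of all tested genes. The gene called by edgeR was Mpc2, a subunit of the pyruvate carrier, which fell from 33.3 ± 6.52 to 22.5 ± 2.38 CPM (SD, n = 5 each). On the log2 scale this was -0.57 ± 0.13 (SE), with an edgeR adjusted p of 0.0365. It was 39.2, 36.3, 37.8, 29.1 and 23.9 CPM in untreated and 26, 21.9, 19.9, 23.5 and 21 CPM in RG2833 replicates 1 to 5, and the groups overlapped through untreated replicate 5. Of the 10 fits without 1 animal, 2 kept this call (without untreated replicates 4 or 5), leaving out any other animal gave edgeR adjusted p-values of 0.0565 to 0.102, and with the ribosomal RNA covariate the log2 fold change was -0.19 ± 0.24 (SE). Of the 10 mitochondrial biogenesis genes, among them Ppargc1a, Nrf1 and Tfam, edgeR called 0 and DESeq2 called 0. At an unadjusted p under 0.05, 3 passed, all higher (30%, against 24.5% of all tested genes), and the median log2 fold change of the list was -0.01.

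**Figure D5:**
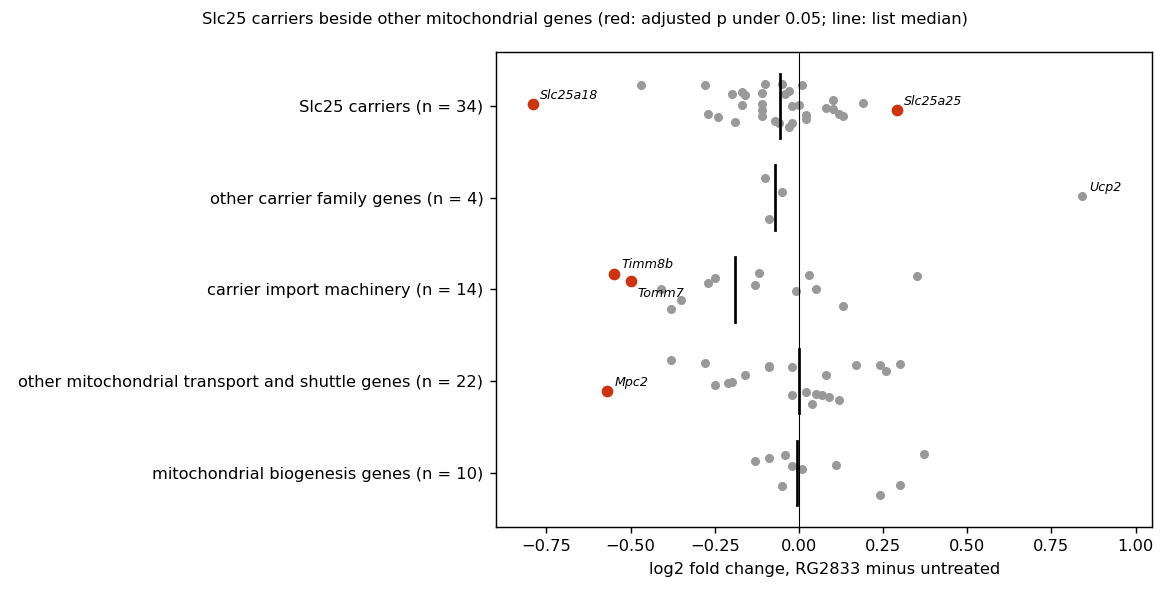
Log2 fold change (RG2833 minus untreated, horizontal axis) of each tested gene in 5 lists, with the list median as a line and genes past an adjusted p under 0.05 in red. The medians are -0.05 for the Slc25 carriers, -0.07 for other family members, -0.19 for the import machinery, 0.00 for other transport and shuttle genes and -0.01 for biogenesis genes.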

How the data were processed

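RNA-seq libraries of 10 hippocampi were analysed from 2 tables. The first holds RSEM expected counts per gene symbol, which the authors deposited with 2 decimals. The second holds a normalized signal, which the authors deposited as counts per 1000000 with TMM factors. Per the submitters' processing notes, bcl2fastq 2.17, Bowtie2 2.1.0, RSEM 1.2.15, edgeR and the build rn6 were used. The annotation is not given in the sources used here.

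Expected counts were rounded and filtered with filterByExpr by group, which left 11791 genes, and tested with edgeR 4.0.16 (R 4.3.3; quasi-likelihood test, TMM, all 10 animals, no covariate). Standard errors were obtained as the size of the log2 fold change over the square root of the F statistic. Counting error only is covered by the floor of 3 counts. The 20 within-group pairs of libraries differed beyond sampling noise (chi-square per degree of freedom 4.74 to 37.9). The code was tested on simulated data. Values by animal are given for called carriers and the 12 with the smallest p-values. Of these 12, 1 is not reported here by name, and 1 cell type marker was left out of its list. The members and lists were chosen with earlier results of these data known. Alternatives used DESeq2 1.42.0, limma 3.58.1, other filters and scalings, a replicate block, a ribosomal RNA covariate, and fits without 1 animal. Same-numbered animals are not paired in the labels.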

Additional observations from a re-analysis of the deposited data

Results flagged for a closer look

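Dixon's gap ratio was computed for 106 sets of 5 animals (tested carriers, other named genes, marker sums, total counts and ribosomal RNA shares, by treatment). In 5 sets 1 animal stood apart beyond the limit of 0.71, and chance is expected to give about 5.3. For Slc25a32, the folate carrier, untreated replicate 3 had 8.25 CPM, while its group otherwise spanned 10.7 to 10.9 CPM. RG2833 replicate 1 had 70.2 CPM of Slc25a39, above a span of 59.4 to 62.2 CPM, and RG2833 replicate 5 had 76.1 CPM of Slc25a46, below a span of 84.7 to 88 CPM. Choroid plexus markers summed to 2451 CPM in untreated replicate 1 and to between 6.76 and 24.5 CPM elsewhere in that group. Neuron markers summed to 6528 CPM in RG2833 replicate 1, where its group otherwise spanned 5358 to 5647 CPM.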

How the results depend on the processing

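The count of 2 called carriers was also 2 with DESeq2 size factors and with a mean count of at least 50. It was 1 with library totals only, limma-voom and limma trend (pseudocounts 1 and 0.1), 4 with DESeq2's Wald test and 4 at an adjusted p under 0.1. It was 0 without a filter (6 at an unadjusted p under 0.05), 0 with the replicate block (5 unadjusted) and 0 with the ribosomal RNA covariate (0 unadjusted), all by edgeR. Without 1 animal it ran from 0 to 2 (edgeR, with 4 to 8 unadjusted). It was 2 without untreated replicate 4 (Slc25a18 and Slc25a25) or 5 (Slc25a25 and Slc25a33, with Slc25a18 lost). Among all tested genes, 599 were called, against 1259 with DESeq2's Wald test (run on 14628 genes without the filter; 1245 of them among the genes edgeR tested), 180 with the replicate block, 2 with the ribosomal RNA covariate, 1466 at an adjusted p under 0.1, and 98 to 1556 without 1 animal, the highest without untreated replicate 4. The covariate turned the log2 fold changes of Slc25a18 (0.03) and Slc25a20 (0.04), and the cause was not tested. Of the genes refitted under the 20 alternatives (the carriers with the 12 smallest p-values, Ucp2, Timm8b, Tomm7, Mpc2, Rbfox3 and Aif1), the others kept their direction; further carriers and markers were not refitted by name. Same-numbered animals had correlations of deviations between -0.319 and 0.151. These values cannot decide whether animals shared a litter, cage or batch. The labels state no pairing, so the replicate block may group unrelated animals. The median log2 fold change of all genes was between -0.017 and -0.00347 under the 3 scalings. The planned test on whole reads recovered from the normalized signal was not run. For low carriers such as Slc25a2, the standard error limits what could be detected. The parts of depth and of spread between animals in it were not tested.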
